A study of Ovis aries with 36 samples.

Results

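Gluteobiceps (GB) is the large lateral muscle of the thigh, and its cranial part was compared here with the other 8 muscles sampled from the same lambs. RNA-Seq libraries labelled Gluteobiceps, 1 from each of 4 lambs, make up 4 of the 36 libraries of the study, and the other 32 come from 8 muscles with 4 libraries each. The hind limb muscles among these are Semitendinosus (ST), Semimembranosus (SM), Gluteus medius (GM), Rectus femoris (RF) and Adductor (AD), whereas Longissimus lumborum (LL) and Psoas major (PM) lie in the loin and Supraspinatus (SS) lies over the shoulder blade. All groups came from the same untreated animals, unrelated male Poll Dorset cross-bred lambs, 14 months old, that were raised on grassland and received soy crop and grain sorghum after weaning. The muscles were sampled from the middle of the superficial belly soon after slaughter, so each library represents a single site in its muscle.

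Skeletal muscle is a mixture of slow fibres, which contract slowly and resist fatigue, and fast fibres, which contract quickly and rely more on glycolysis. Slow fibres use their own isoforms of the thick and thin filament proteins, of the troponin complex that makes contraction sensitive to calcium, and of the pump that returns calcium to the sarcoplasmic reticulum. Muscles of the same animal also keep a record of their position in the body in the homeobox genes that they express. In bulk tissue, more fibres of a type and more RNA of that gene per fibre cannot be told apart.

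The counts gave GB a comparable depth to the other muscles. The 4 GB libraries held 4250216 to 5985584 counts, and the 32 others held 3699148 to 6427422. A small set of 8 loci, each with more than 1% of all counts, took 78% to 81.8% of each GB library and 76.6% to 86.1% of the others, which left 931886 to 1318434 counts in GB for all other loci. This share was 2.27 percentage points lower in GB than in the other muscles of the same animal (exact permutation test of which library of each animal is GB, two-sided p = 0.051, adjusted p = 0.15 over 3 values). Total counts and the number of loci detected gave exact permutation p = 0.3 and p = 0.72. None of the 8 skeletal muscle, adipocyte, connective tissue, vessel, blood, immune or nerve marker lists could be read, because none of their symbols could be paired with a locus, and a share of these other cell types in any difference was not tested.

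GB differed from the mean of the other 8 muscles at few loci, and all that passed the thresholds after the filter on low counts were higher in GB. Genes of the contractile apparatus led them, namely the myosin light chain kinase MYLK3, the slow fibre Z-disc protein MYOZ2 and the slow tropomyosin gene TPM3. All were 2.11 to 2.66 times the mean of the other 8 muscles, taken on the log scale. GB ranked 2 of the 9 muscles at each, below PM for MYLK3 and TPM3 and below SS for MYOZ2. At a false discovery rate (FDR) of at most 0.01 and an absolute log2 fold change (log2FC) above 1, 7 of 12461 loci were higher in GB (0.0562% of those tested) and 0 were lower. The likelihood ratio test gave 16 higher and 2 lower, and DESeq2 gave 9 higher and 0 lower. Without the filter on low counts the direction turned, with 35 loci higher and 59 lower in GB. At an FDR of at most 0.05 with no fold threshold, 21 loci were higher (0.169%) and 2 were lower (0.0161%), and 1516 loci had an unadjusted p under 0.05 (12.2%, edgeR's quasi-likelihood test). The median log2FC over all loci, which the normalization holds near 0, was 0.014. Of the 23 loci at an FDR of at most 0.05, 20 had the same sign in all 4 animals. The count of 7 became 4 without the GB library of animal 1 and 3 without that of animal 4, and 2 and 4 without all libraries of animals 1 and 4. The count was 5 without ST in the mean (3 of them among the 7), 3 without LL and 13 without SS. It was 20 against the other 5 hind limb muscles, and 1 (MYLK3) in a fit without the animal term.

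**Figure D1:**
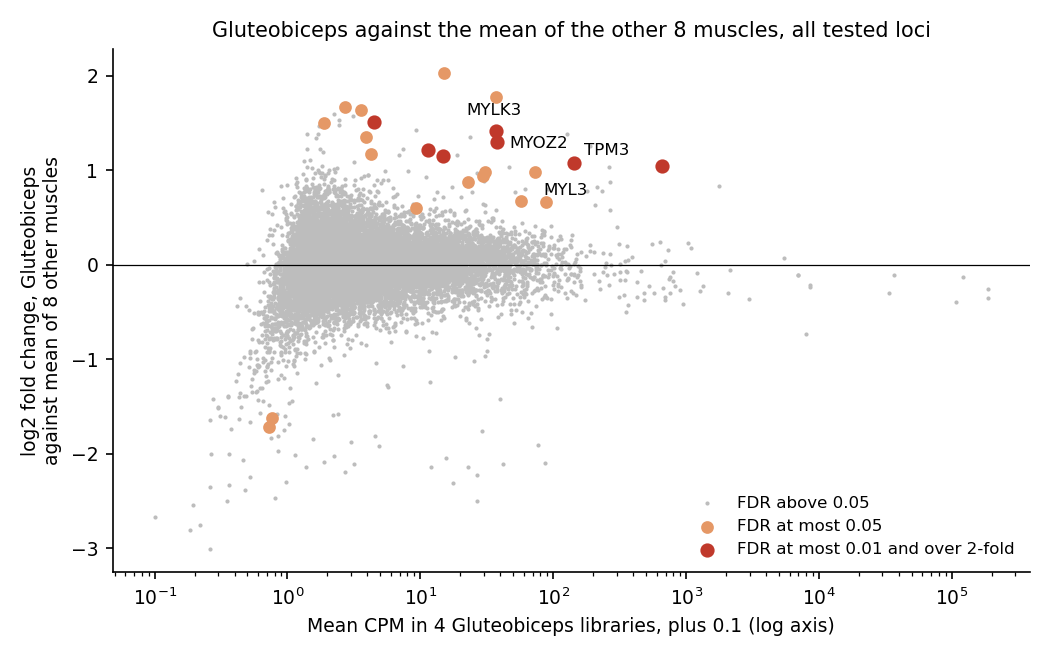
Log2 fold change of GB against the mean of the other 8 muscles (vertical) and mean CPM in the 4 GB libraries plus 0.1 (horizontal, log axis), with 1 point per tested locus. The 7 red points passed an FDR of 0.01 and a 2-fold change and all lie above 0, and 2 of the orange points, which passed an FDR of 0.05 alone or with a smaller fold, lie below it.

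MYLK3, a kinase that phosphorylates the regulatory light chain of myosin, gave the smallest p. Its level was 38.6, 35.9, 41 and 31.6 CPM (counts scaled to the normalized library size) in the GB libraries of animals 1 to 4, and between 1.49 and 53.4 CPM in the other 32 libraries, with a median of 16.4 CPM. The 4 GB values were close to each other, and only 3 of the 32 other libraries exceeded the highest of them. The log2FC was 1.41 ± 0.099 (SE of the within-animal differences, n = 4) with an FDR of 1.7e-05. The locus lies on chromosome 14, from 14547940 to 14606419 on the Oar_v3.1 assembly, and was paired with the gene by the end coordinate alone. By muscle, the mean level was 40.2 ± 11.1 CPM in PM, 36.8 ± 4.01 in GB, 27.8 ± 8.17 in SS and 27.5 ± 13 in GM (SD, n = 4). The means of GB and PM differed by less than the spread in PM, and GB was above SS in 4 of 4 animals by 0.44 ± 0.17 on the log2 scale without passing the threshold (FDR 0.47). It was 17.8 ± 8.76 CPM in RF, 17 ± 6.45 in AD, 10.7 ± 3.57 in SM, 8.17 ± 4.61 in LL and 2.05 ± 0.949 in ST. An unannotated locus with the same listed position had a log2FC of 1.17 and an FDR of 0.032. It may be part of the same transcript, which was not tested, so it is no separate observation.

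MYOZ2, which binds calcineurin and alpha-actinin at the Z-disc of slow fibres, was at 31.1, 34.5, 52.5 and 31.3 CPM in GB. The other libraries ranged from 1.53 to 74.1 CPM with a median of 17.3 CPM, and the 4 GB libraries lay in their upper part, with 3 other libraries above the highest GB value. The log2FC was 1.3 ± 0.099 (SE, n = 4) with an FDR of 1.9e-05. SS had the highest mean, 54.1 ± 14.1 CPM, followed by GB at 37.4 ± 10.2 CPM and PM at 33.4 ± 18.4 CPM. ST and RF were lowest, at 2.73 ± 1.61 and 5.96 ± 1.29 CPM, and neither had a library that reached the lowest GB value. The gene lies on chromosome 6, from 6264895 to 6303407.

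TPM3, a tropomyosin of the thin filament with a slow muscle isoform, had 115, 114, 165 and 173 CPM in GB, against 10.1 to 285 CPM and a median of 67.6 CPM in the other libraries. Animals 3 and 4 were higher than animals 1 and 2 in GB. The log2FC was 1.07 ± 0.075 (SE, n = 4, FDR 5.6e-04). The mean in GB, 142 ± 31.5 CPM, equalled that of SS, 140 ± 44.6 CPM, within the spread, and PM was higher at 218 ± 47.1 CPM. The gene lies on chromosome 1, from 103039221 to 103067829. An unannotated locus listed at the same position had a log2FC of 0.94 with an FDR of 0.044. Whether that locus is part of the same transcript was not tested.

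MYL3, the essential light chain of slow and cardiac myosin, had 60.4, 89.7, 70.2 and 71.7 CPM in GB. The other muscles ranged from 1.09 to 207 CPM with a median of 49.1 CPM. With a log2FC of 0.98 ± 0.27 (SE, n = 4) and an FDR of 0.024 it passed the weaker threshold. PM stood far above GB, with a mean of 185 ± 20 CPM against 73 ± 12.2 CPM, and ST far below, with 2.85 ± 2.01 CPM. Without ST in the mean, the log2FC of MYL3 fell to 0.45 and its FDR rose to 0.4. Leaving out each animal or each GB library in turn gave log2FC values between 0.68 and 1.15.

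**Figure D2:**
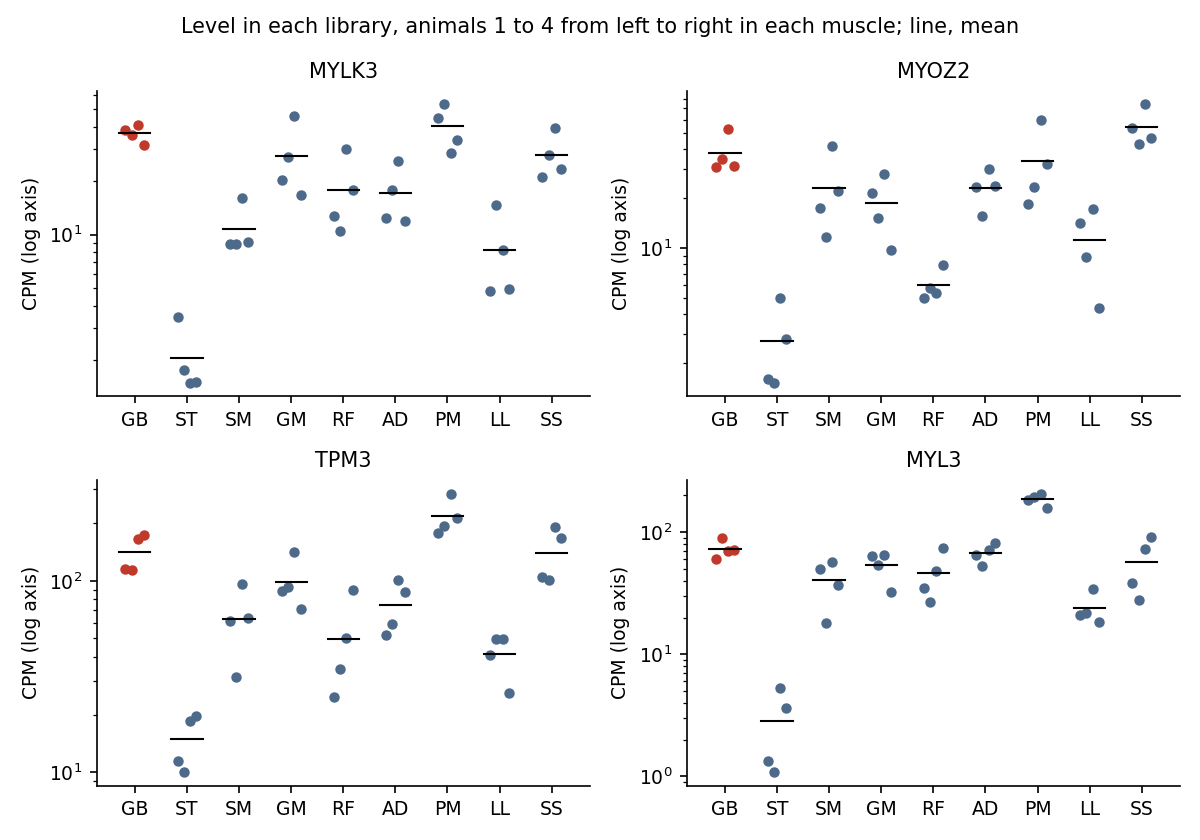
Level of MYLK3, MYOZ2, TPM3 and MYL3 in CPM (log axis) in each of the 36 libraries, by muscle, with animals 1 to 4 from left to right and the mean as a line. The 4 GB points (red) lie above the median of the other 32 libraries in each panel. By mean, PM was above GB for MYLK3, TPM3 and MYL3 and SS was above GB for MYOZ2. ST had the lowest mean in each panel.

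Other members of the slow contractile list moved less. Of 15 symbols in this list, 7 could be paired with a tested locus, and all 7 had a positive log2FC. The median of these was 0.82, beside a median of 0.014 over all loci. An FDR of at most 0.05 was reached by 3 of the 7 (MYOZ2, TPM3 and MYL3) in the direction of GB and by 0 in the other, where 0.169% of all loci were called higher. These 7 genes carry names only because the study listed them as lower in ST than in SS, in a contrast of these same libraries. Their direction is therefore not independent evidence. The slow troponin genes had intermediate values. TNNT1, the slow troponin T that binds tropomyosin, was at 131, 177, 194 and 214 CPM in GB (log2FC 0.78, FDR 0.1). TNNC1, the calcium-binding subunit, was at 146, 234, 249 and 226 CPM (log2FC 0.82, FDR 0.093). TNNI1, the inhibitory subunit, was at 19.7, 27.3, 48.3 and 42.1 CPM (log2FC 0.49, FDR 0.4). In all 3 genes animal 1 was the lowest of the GB libraries, and SS and PM had higher means than GB. MYOM3, an M-band protein, had the smallest value of the list, with a log2FC of 0.26 and an FDR of 0.7.

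At the position shared by MYL2, the slow regulatory light chain, and CCDC63, the files list 2 Ensembl loci, so neither carries a gene name here. One had 24.2, 28.7, 33.1 and 37.1 CPM in GB, with a log2FC of 0.98 and an FDR of 0.0097, just under the 2-fold threshold. The other had a log2FC of 0.8 and an FDR of 0.15. A locus at the position of MYH7B, a myosin heavy chain gene, ranged from 26.9 to 64.4 CPM in GB (log2FC 1.03, FDR 0.1), with SS the only muscle with a higher mean. A second locus at that position had a log2FC of -0.14 (FDR 0.68), and GB ranked last of the 9 muscles at it.

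Calcium handling genes did not pass the threshold against the mean of the other muscles. The 3 of 18 listed genes with a tested locus had a median log2FC of 0.32. ATP2A2, the calcium pump of slow fibres, was at 231, 236, 350 and 252 CPM in GB, with a log2FC of 0.58 and an FDR of 0.17. CASQ2, the slow and cardiac calcium store protein calsequestrin, had a log2FC of 0.2 (FDR 0.71). PVALB, the calcium buffer of fast fibres, had 16 counts over the 4 GB libraries and a log2FC of 0.32 (FDR 0.72), which is the median of the 3. Its within-animal difference from the mean of the other muscles was positive in only 1 of 4 animals. Genes of glycolysis were represented by 1 of 28 symbols, PPP1R3D, a glycogen targeting subunit of protein phosphatase 1, with a log2FC of 0.21 (FDR 0.61). No symbol of the fast fibre, oxidative metabolism, stress, innervation or extracellular matrix lists could be paired with a locus. Among the regulators of muscle growth, EYA1 had a log2FC of 0.2 (FDR 0.79), SMYD2 of -0.1 (FDR 0.78) and METTL21C of -0.83 (FDR 0.52).

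The other 4 loci past both thresholds have no symbol here. The Ensembl gene ENSOARG00000008961 (chromosome 6, 18259217 to 18394393) was at 10.7, 13, 25 and 10.7 CPM in GB, with the third animal well above the other three. GB had the highest mean of all 9 muscles at this gene, 14.8 ± 6.86 CPM, followed by PM with 10.6 ± 3.42 CPM, and the log2FC was 1.15 ± 0.08 (SE, n = 4, FDR 5.6e-04). Without the GB library of animal 3 the log2FC was 1.07. ENSOARG00000004681 (chromosome 3, 159530727 to 159691638) was at 18.1, 8.45, 8.27 and 10.2 CPM in GB, with the first animal highest. Its log2FC was 1.21 (FDR 0.0021), and the SS mean of 11.6 ± 3.84 CPM was close to the GB mean of 11.3 ± 4.66 CPM. Without the GB library of animal 1 the log2FC was 1 and the FDR rose to 0.15.

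Loci that differed in GB also lay beside each other in 2 regions. On chromosome 16, from 19691070 to 19905869, 3 unannotated loci reached an FDR of at most 0.05 within 215 kb. The leading one had 5.69, 2.39, 6.54 and 2.96 CPM in GB (log2FC 1.51, FDR 0.0021), with animals 1 and 3 above animals 2 and 4. Its mean was 4.4 ± 2.03 CPM in GB, 4.34 ± 2.58 in PM and 3.51 ± 1.11 in SS (SD, n = 4). It did not separate GB from PM (log2FC 0.07, FDR 0.97) or from SS (log2FC 0.29, FDR 0.78). All 7 tested loci in this span lack an Ensembl gene, and all 7 were on the positive side, with log2FC values from 0.86 to 1.67. Over all tested loci, 52.2% were positive. The ends of the span were set by loci that had passed the threshold, so the shared sign is no separate test. The positions are those of assembled transcripts, so neighbouring loci may be pieces of a single transcript, which was not tested. Without the GB library of animal 1, the leading locus had a log2FC of 1.09 and an FDR of 0.15.

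On chromosome 2, from 119063414 to 119270385, 2 Ensembl loci were both higher in GB. The more abundant had 820, 467, 364 and 982 CPM in GB, a mean of 658 ± 291 CPM, against 602 ± 164 CPM in SS, 455 ± 221 in SM, 441 ± 150 in ST and 144 ± 33 in PM. Animals 1 and 4 had the high values. The log2FC was 1.05 with an FDR of 0.0049, and without the GB library of animal 4 it was 0.64 with an FDR of 0.26. Its neighbour had 81.6, 45.1, 40.6 and 62.5 CPM in GB, with the same order of animals 1 and 4 above animals 2 and 3, and a log2FC of 0.68 (FDR 0.017).

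The 2 loci lower in GB had few counts. An unannotated locus on chromosome 23, from 33887076 to 33887245, was at 0.711, 0.282, 0.962 and 0.565 CPM in GB and at 0.672 to 3.76 CPM in the other 32 libraries (log2FC -1.71, FDR 0.029). ENSOARG00000002820 on chromosome 13, from 60874932 to 60921921, was at 0.533, 0.563, 0.577 and 0.988 CPM in GB, against a median of 2.06 CPM elsewhere (log2FC -1.62, FDR 0.032). GB had the lowest mean of the 9 muscles at both. They stayed at an FDR of at most 0.05 in 15 and 14 of 24 alternatives. Leaving out each animal or GB library in turn gave FDR values of up to 0.22 and 0.21. A count of 3, taken as the detection floor, corresponds to 0.422 to 0.577 CPM in the GB libraries, so both genes sat close to it there.

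Set beside the same contrast for each other muscle, GB had few calls. With an FDR of at most 0.01 and a 2-fold change, AD also had 7, RF and GM had 20 each, PM 44, SM 60, LL 68, ST 179 and SS 188. At an FDR of at most 0.05, the 23 loci of GB were the fewest, and the other muscles had 38 to 893. By measures without adjustment GB did not rank lowest, since 1516 loci had a p under 0.05 in GB against 1344 in RF and 1417 in PM, and its median absolute log2FC of 0.181 was above those of GM, RF, AD and PM (0.17 to 0.179). The 9 contrasts share all 36 libraries. The number of loci at which a muscle had the highest level of the 9 in every animal was 2 for GB and 9 to 87 for the others, and the lowest in every animal 1 for GB and 1 to 56 for the others. The median SD of log2 CPM between the 4 animals was 0.332 in GB and 0.333 to 0.432 elsewhere.

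Compared with 1 muscle at a time in the fit of all libraries, GB had the most calls against ST and none against GM. Between GB and ST, 120 loci passed both thresholds (0.963%), 91 of them higher in GB (0.73%). Between GB and SS there were 61 (0.49%), of which 42 were lower in GB (0.337%), and between GB and LL there were 60 (0.482%), 37 of them higher in GB (0.297%). The other counts were 21 for RF (0.169%), 16 for AD (0.128%), 12 for SM (0.0963%), 11 for PM (0.0883%) and 0 for GM. These counts moved with single libraries. Leaving out each GB library in turn gave 82 to 124 for ST, 29 to 52 for LL, 15 to 25 for SS, 9 to 15 for RF, 0 to 33 for AD, 4 to 28 for PM, 0 to 7 for SM and 0 for GM. The lowest values were those without animal 1 for ST, LL and SM, without animal 2 for SS and RF, and without animal 4 for AD and PM. In fits to only the 8 libraries of each pair, SS had 179 calls, ST 81, PM 53, AD 41, LL 29, RF 10, GM 3 and SM 2. Against GM, 0 loci passed an FDR of 0.05 either, while 1054 had an unadjusted p under 0.05 (8.46%, edgeR's quasi-likelihood test). The likelihood ratio test called 4 loci between GB and GM, all lower in GB, DESeq2 called 0, and the fit without a filter called 59. By unadjusted p the order differed, with 2204 loci under 0.05 against AD and 2171 against ST. All 8 comparisons use the same 4 GB libraries, so their counts are not independent. Of the 12461 loci, 238 were called in at least 1 comparison and 1 was called in 4.

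**Figure D3:**
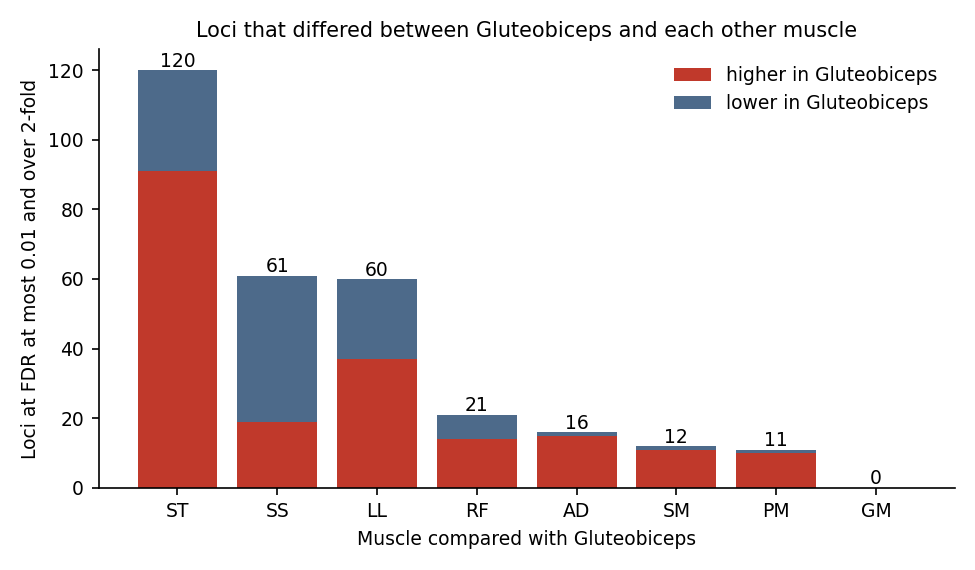
Number of loci at an FDR of at most 0.01 and over 2-fold between GB and each other muscle, higher in GB (red) and lower in GB (blue). The bars fall from 120 for ST to 0 for GM, and SS is the only muscle against which most calls were lower in GB, 42 of 61.

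Slow fibre genes gave their largest values against ST. All 7 members of the list were higher in GB at an FDR of at most 0.05, where 1.81% of all loci were. Their median log2FC was 2.95, beside -0.01 over all loci. The study had listed all 7 as lower in ST than in SS in these same libraries, and also MYLK3, ATP2A2 and CASQ2. Low levels in ST were thus part of how these genes came to be named, and the 7 of 7 is no independent evidence. MYL3 had a log2FC of 4.71 ± 0.52 (SE, n = 4), MYOZ2 of 3.78 ± 0.23 and TPM3 of 3.27 ± 0.08, each with an FDR of 9.1e-11. MYLK3, outside the list, differed by 4.25 ± 0.24 with the same FDR. Within the troponin complex, TNNT1, TNNC1 and TNNI1 were higher by 2.95, 2.89 and 2.59 on the log2 scale. The calcium pump ATP2A2 was 4.72-fold higher in GB (FDR 2.8e-07) and CASQ2 was 3.61-fold higher (log2FC 1.85, FDR 9.8e-04).

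On the side of ST were the fast fibre calcium buffer PVALB and loci beside MYLK4, a kinase of the same family as MYLK3. PVALB had 1 to 6 counts per library in GB and 9 to 37 in ST (log2FC -3.19, FDR 1.5e-04). The unannotated locus that the study assigned to MYLK4 was at 1.07, 0.986, 0.577 and 0.282 CPM in GB and had a mean of 7.35 ± 4.2 CPM in ST (log2FC -3.24, FDR 2.2e-06). SIM2, a transcription factor with a known role in limb muscle development, had 42 counts over the GB libraries and 1 over the ST libraries, a ratio of 31.9 with a 95% counting interval of 5.42 to 1290.

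**Figure D4:**
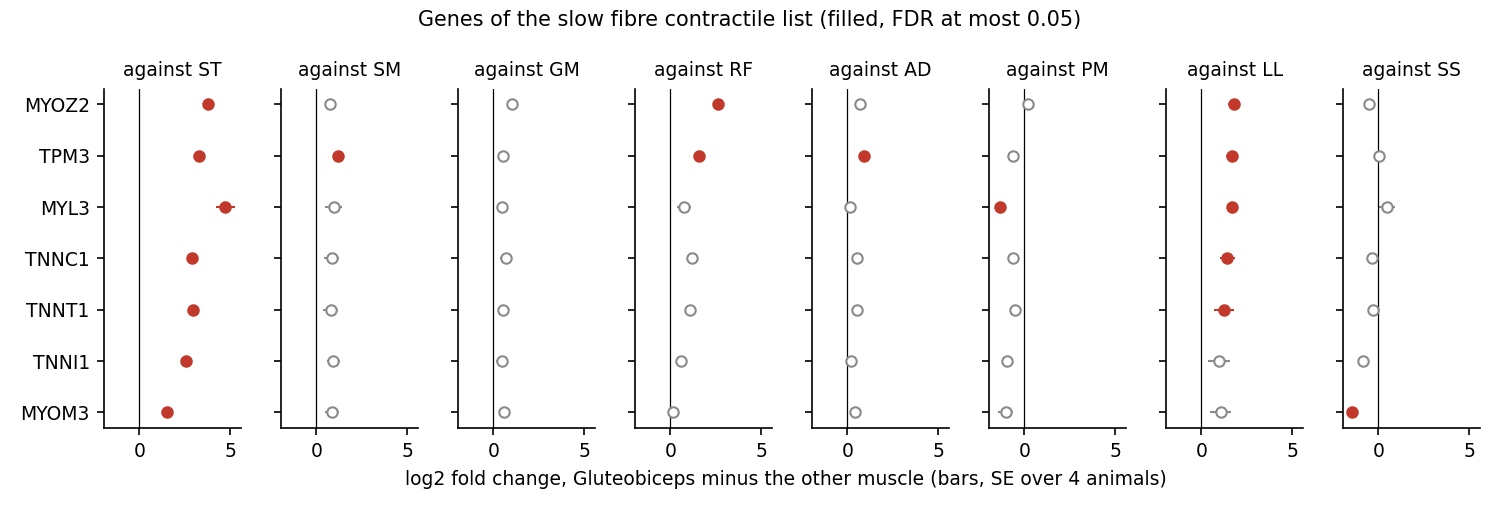
Log2 fold change of GB minus each other muscle for the 7 measured genes of the slow contractile list, with the SE over 4 animals as bars and filled points at an FDR of at most 0.05. All points lie right of 0 against ST, SM, GM, RF, AD and LL, whereas against PM and SS most lie left of it.

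Against the other hind limb and loin muscles the same list gave smaller values. In the comparison with LL, 5 of the 7 genes were higher in GB at an FDR of at most 0.05 (background 0.995%), with a median log2FC of 1.43, and ATP2A2 was 2.19-fold higher (FDR 0.01). With RF, 2 of 7 were higher (background 0.193%), MYOZ2 by 2.6 on the log2 scale (FDR 1.4e-07) and TPM3 by 1.55 (FDR 6.1e-04). With SM and AD, 1 of 7 was higher in each case, namely TPM3, with log2FC values of 1.2 and 0.94 and backgrounds of 0.722% and 0.658%. With GM, 0 of 7 passed, although all 7 had positive values and a median of 0.55. The value of MYOZ2 between GB and GM was 1.05 ± 0.24 (SE, n = 4), positive in 4 of 4 animals, with an FDR of 0.098.

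PM and SS were the muscles in which slow fibre genes were as high as in GB or higher. The list had a median log2FC of -0.63 against PM and -0.35 against SS, and 0 of 7 genes passed an FDR of 0.05 in the direction of GB in either comparison. MYL3 was lower in GB than in PM (log2FC -1.33, FDR 0.019, background of loci lower in GB 0.233%). MYOM3 was lower in GB than in SS (log2FC -1.46, FDR 0.01, background 1.42%), as were CASQ2 (-0.92, FDR 0.043) and PVALB (-2.73, FDR 0.0051). MYLK3 did not separate GB from either muscle, with log2FC values of -0.16 ± 0.23 against PM and 0.44 ± 0.17 against SS (SE, n = 4, FDR 0.86 and 0.47).

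PVALB was low in GB, though not as low as in some muscles. Its counts over the 4 libraries were 16 in GB, 11 in GM, 2 in SM, 3 each in LL and PM and 0 in AD, but 107 in ST, 107 in SS and 167 in RF. GB was below RF (log2FC -3.39, FDR 2.3e-04), below ST and below SS. The SS libraries were uneven, from 7 to 76 counts each, with a mean of 5.65 ± 7.87 CPM (SD, n = 4). Relative to the muscles with few counts, GB had 6.4 times the level of SM with a 95% counting interval of 1.5 to 57.3, and at least 4.76-fold more than AD when 3 counts over the group are taken as the floor. The intervals and floors cover counting error only, and the FDR was 0.3 against SM and 0.082 against AD.

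Against SS, the shoulder muscle, 2 of the 3 positional regulators with a locus were higher in GB, where 0.682% of all loci passed an FDR of 0.05 in that direction. They have names here because the study listed them in contrasts of these libraries with SS. HOXD8, a homeobox gene of the posterior body axis, had 23 to 70 counts per library in GB and 1 to 8 in SS, a log2FC of 3.53 ± 0.45 (SE, n = 4, FDR 4.1e-07). HOXC10, a homeobox gene of the lumbar and hind limb region, had 66 counts over the GB libraries and 0 over the SS libraries, at least 19.4-fold higher against a floor of 3 counts over the group. The other 7 muscles had 55 to 74 HOXC10 counts, and the log2FC of GB against PM was 0 ± 0.13. HOXD8 also separated GB from RF, which had 34 counts against 179 in GB (log2FC 2.29, FDR 8.3e-05), while LL had 329 counts and GB was lower than LL by 1 on the log2 scale (FDR 0.017). Within GB, HOXD8 was at 4.09, 3.52, 13.5 and 8.61 CPM, so animals 3 and 4 were above animals 1 and 2. Against the mean of the other 8 muscles, the 3 positional regulators with a locus (HOXC10, HOXD8 and SIM2, of 65 symbols) had a median log2FC of 0.76 and 0 of them passed an FDR of 0.05. The value of HOXC10 was 0.76 (FDR 0.19), and -0.12 (FDR 0.85) with SS left out of the mean.

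Further genes that were higher in GB than in SS were CHI3L1, a secreted chitinase-like glycoprotein (log2FC 3.18 ± 0.61, FDR 4.1e-07), and RIMS2, a scaffold protein of vesicle release (3.16 ± 0.2, FDR 2.6e-05). The CHI3L1 locus joins 2 Ensembl genes. RIMS2 was at 6.22, 4.65, 6.16 and 5.22 CPM in GB and had a mean of 0.6 ± 0.181 CPM in SS. It was also 4.09-fold higher in GB than in RF (FDR 0.0035). On the other side, METTL21C, a lysine methyltransferase of muscle, had 67 counts over the GB libraries and 1308 over those of SS (log2FC -4.75 ± 0.86, FDR 1.5e-06), though the SS libraries themselves ranged from 68 to 494.

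The locus called in 4 of the 8 comparisons lies at the position of the light chain gene MYL6 on chromosome 3, where 2 Ensembl loci are listed and the name is not assigned. It was at 15.1, 14.8, 31.9 and 6.92 CPM in GB, with animal 3 highest and animal 4 lowest. GB was higher than ST (log2FC 1.7), RF (1.8) and PM (1.85) and lower than SS (-2.2), with FDR values of 0.0031, 0.0053, 0.0063 and 1.2e-05. The second locus at that position was at 24.7, 23.8, 25.4 and 29.9 CPM in GB and differed by -0.26 from the mean of the other muscles (FDR 0.29).

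The abundant locus on chromosome 2 was called higher in GB than in AD and PM. It led the loci higher in GB in both comparisons, 3.48-fold higher than in AD (FDR 0.0018) and 4.6-fold higher than in PM (FDR 2.7e-05), in 4 of 4 animals each. Against SS it had a log2FC of 0.13 ± 0.31 (SE, n = 4, FDR 0.89). Without the GB library of animal 4, 0 loci were called against AD. Against PM, 3 were then called higher in GB and 1 lower. Of the 11 loci called between GB and PM, 10 were higher in GB (0.0803%), and the other, on chromosome 8, had a mean of 0 CPM in GB and 7.83 CPM in PM (FDR 6.6e-08). Of the 16 called between GB and AD, 15 were higher in GB (0.12%). At an FDR of at most 0.05 with no fold threshold the sides were less unequal. Of 12461 loci, 82 were then higher and 70 lower in GB against AD, 68 and 29 against PM, and 90 and 61 against SM. Of the 12 called between GB and SM, 11 were higher in GB (0.0883%), MYLK3 the first of them (log2FC 1.83, FDR 0.0011), and 9 of the 12 had no Ensembl gene (75%). Over all tested loci that share was 25.4%, and among the calls of the other comparisons it ran from 0% for PM to 45.8% for ST.

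The place of GB between the extremes was described with the 285 loci that passed both thresholds between ST and SS, on a scale where each animal's own ST is 0 and SS is 1. GB libraries lay at 0.733, 0.693, 0.544 and 0.679, a mean of 0.662 ± 0.0818 (SD, n = 4), with animal 3 lowest. The group mean of GB fell between ST and SS at 253 of the 285 loci (88.8%). The means of GM, PM and AD were 0.705 ± 0.0936, 0.704 ± 0.177 and 0.692 ± 0.129, which differ from GB by less than the spread between animals, and RF, LL and SM were at 0.571, 0.524 and 0.486. Split by direction, GB was at 0.744 ± 0.0997 on the 189 loci higher in SS and at 0.475 ± 0.145 on the 96 loci higher in ST. Among the 7 muscles between the ends, these were the highest and the lowest of the means. On the loci higher in SS, the range over animals in GB, 0.628 to 0.865, lay above that of SM, 0.361 to 0.492, and overlapped those of the other muscles, and on the loci higher in ST all ranges overlapped that of GB. The loci were selected on ST and SS, whose libraries fix the ends, so no test was made.

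**Figure D5:**
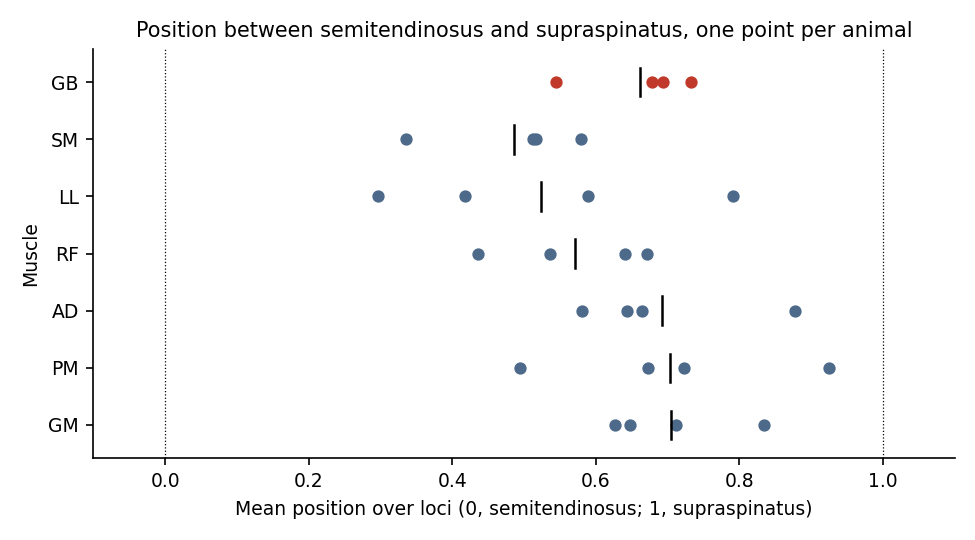
Mean position of each muscle over the 285 loci that differed between ST (0) and SS (1), with 1 point per animal and the mean as a line. The 4 GB points (red) run from 0.544 to 0.733 and overlap those of the other 6 muscles.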

How the data were processed

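RNA-Seq of 36 libraries was used, 9 muscles from each of 4 lambs. Per the labels, the authors aligned 100-bp paired reads to Oar_v3.1 with TopHat2 2.0.13, assembled loci with Cufflinks 2.2.1 and counted reads with HTSeq, and they deposited whole-number counts per locus without normalization. Such counts merge isoforms, overlapping genes can share a locus, and whether counting used strand is not given in the sources used here. Each table holds 31530 entries for 31136 loci, since 339 loci recur under several Ensembl genes with the same counts, and each locus was used once. The libraries held 3699148 to 6427422 counts, of which 613997 to 1469986 lay outside the 8 most counted loci, so loci with few counts were measured with little precision. Each of the 4 lanes held 9 libraries, but the labels give no lane, and lane was not tested.

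After edgeR's filterByExpr, grouped by muscle, 12461 loci remained, and these were TMM-normalized. The model had muscle and animal as factors, and GB was compared with the mean of the other 8 muscles, and with each of them, by edgeR's quasi-likelihood test (edgeR 4.0.16, R 4.3.3) with Benjamini-Hochberg adjustment. The procedure was tested on simulated data. The SE was taken over the 4 animals from log2 CPM (prior count 2), as GB minus the other muscles of the animal. Muscles are paired through the animal numbers of the labels. Deviations from the muscle means correlated between same-animal libraries (mean r 0.254, 0.0914 to 0.42 over 32 pairs with GB). Between animals the mean r was -0.0838. Deviations from a mean over 4 animals sum to 0, which forces this value below 0, so it is no separate observation. The GB libraries differed beyond counting noise (chi-square per degree of freedom 5.62 to 10.3). Alternatives were the likelihood ratio test, DESeq2 1.42.0, a robust fit, RLE size factors, exclusion of the dominant loci, other filters and thresholds, no animal term, and leaving out animals, libraries and muscles.

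The files hold no gene symbols. Names were paired with loci through coordinates that the study lists, which gave 18 of 341 list symbols. No Ensembl identifier matched the gene table supplied (assembly ARS-UI_Ramb_v3.0). Named loci were up to 15 per direction by p, list members at an FDR of at most 0.05 or among the 4 highest of their list, up to 4 per direction and comparison, and genes with study coordinates in a tested locus. At most 6 loci without a symbol are described individually, and the remainder are given as counts or not reported here. The leading locus at the MYL6 position was singled out for its number of calls after its values were seen. The comparison and lists were chosen with earlier results of these data known. No sequence was available to print.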

Additional observations from a re-analysis of the deposited data

Results flagged for a closer look

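In 5 of 70 sets of 4 GB values, 1 animal lay farther from the others than Dixon's 95% critical value for 4 samples allows, and chance alone flags about 1 set in 20. MYOZ2 stood at 52.5 CPM in the GB library of animal 3, with the next at 34.5 CPM. ENSOARG00000008961 was at 25 CPM in the same library, with the next at 13 CPM. FREM2, an extracellular matrix protein that did not pass the threshold (log2FC 0.34, FDR 0.49), was at 7.89 CPM there, with the next at 2.84 CPM. The share of counts in the 8 most counted loci was 81.8% in this library and at most 78.1% in the other GB libraries. ENSOARG00000002820, lower in GB, was at 0.988 CPM in animal 4, with the next at 0.577 CPM. Without the GB library of animal 3, 6 loci passed both thresholds, 5 of them among the 7 reported.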

How the results depend on the processing

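The 7 calls against the mean of the other 8 muscles were kept by the robust fit and DESeq2 (9 calls each), by RLE size factors and without the dominant loci (7 each). The likelihood ratio test gave 18 calls, no filter 94, a minimum of 10 counts in every sample 3, no animal term (no replicate block) 1, and an FDR of 0.05 without a fold threshold 23. Leaving out ST from the mean gave 5 calls, 3 of them among the 7, leaving out SS 13 and leaving out LL 3. The mean of the 5 hind limb muscles gave 20. Of the 94, 59 were lower in GB, and only 3 of the 94 had been removed by the filter. Leaving out each animal or GB library gave 2 to 10 calls. The 8 comparisons with single muscles, 301 calls in all, gave 642 with the likelihood ratio test, 1506 without a filter, 165 with a minimum of 10 counts, 76 with no replicate block, 1314 at an FDR of 0.05, and 137 to 253 when an animal or GB library was left out. The causes of these changes were not tested, beyond the fewer loci or samples that some leave.

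MYLK3 stayed at an FDR of at most 0.05 in 24 of 24 alternatives, MYOZ2 in 23 of 24, TPM3 in 24 of 25 and MYL3 in 15 of 24. The fit without the animal term put MYOZ2 (FDR 0.06) and TPM3 (FDR 0.064) above an FDR of 0.05. By the stricter rule, an FDR of at most 0.01 and a 2-fold change, leaving ST out of the mean also ended both calls. The log2FC was then 0.94 for MYOZ2 (FDR 0.007) and 0.76 for TPM3 (FDR 0.045). TPM3 lost its call by this rule in further settings, such as with LL left out of the mean (log2FC 0.98, FDR 0.0033). HOXC10 changed sign from 0.76 to -0.12 without SS in the mean and to -0.19 against the hind limb muscles, and was past the threshold in neither. The other loci recomputed kept their direction in every alternative run. With 931886 to 1318434 counts outside the dominant loci in GB libraries, the absence of a call at low counts is no sign of equal levels.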
